A study of Mus musculus with 3 samples.

Results

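Interferon-stimulated genes are genes whose transcription rises when a cell senses interferon. The set described here held 44 of the 30905 genes listed in the deposited matrices. Members were taken by symbol as genes known to respond to interferon, with earlier results of these data known. All 44 had at least 1 UMI (unique molecular identifier, 1 count per captured transcript) in both the B-gated and the T-gated barcodes of every library.

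The libraries came from CD45+ cells, the marker of blood-derived cells, sorted from mouse colon. Library C came from healthy C57BL/6 colon, library T1 from colon with low-grade and library T3 from colon with high-grade intraepithelial neoplasia. For the neoplasia model, male C57BL/6 mice received 12 mg/kg of azoxymethane, a colon carcinogen, followed by 3 cycles of 2.5% dextran sodium sulfate (a colitis-inducing polymer) for 7 days and water for 14 days. The labels put the start of the model at 6 to 8 weeks of age, and the same age is listed for C. They do not say how many mice went into a library. Each group was 1 library, so no difference between groups could be tested. The intervals below are exact 95% intervals, cover counting error only, and leave out differences between mice, sorts and preparations. Those of levels and ratios also leave out differences between cells. They treat each UMI as independent, so they are too narrow where few barcodes hold most of a gene's UMIs.

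Type I interferons signal through Ifnar1 and Ifnar2, and interferon gamma through Ifngr1 and Ifngr2. Both receptors act through JAK kinases and STAT proteins, and the type I pathway also uses Irf9 to bind a promoter element called the ISRE. The genes switched on block viral RNA and protein synthesis, sense foreign nucleic acid, or feed back on the pathway through Usp18 and Isg15. In the colon, interferon signalling is known from antiviral defence and from responses to the resident microbes.

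Promoter sequence is shown first because an ISRE-type motif is what many of these genes share beyond their name. RefSeq promoters of build GRCm38.p6 were matched for 34 of the 44 members. The 10 without an entry were Mx1, Oas2, Usp18, Ifi204, Dhx58, Zbp1, Rtp4, Parp9, Parp14 and Ifi27l2a. The ISRE-type motif (GAAA, then 2 bases of any kind, then GAAA), searched on both strands with overlaps allowed in the 250 bases before the start, was found in 16 of the 34 members (47.1%) and in 3.46% of all 27025 genes with a promoter. The GAS-type motif TTCNNNGAA, which reads the same on both strands, was found in 5 of the 34 (14.7%) and in 8.13% of all genes. A match describes letters in this window and is not evidence of a bound factor. The 150 bases before the start are given 5′ to 3′ on the gene's strand for 6 members on which the results below turn, with ISRE-type matches in capitals.
Ifit3: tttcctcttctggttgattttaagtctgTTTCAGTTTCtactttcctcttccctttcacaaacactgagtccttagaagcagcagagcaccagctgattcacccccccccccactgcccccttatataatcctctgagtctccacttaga
Rsad2: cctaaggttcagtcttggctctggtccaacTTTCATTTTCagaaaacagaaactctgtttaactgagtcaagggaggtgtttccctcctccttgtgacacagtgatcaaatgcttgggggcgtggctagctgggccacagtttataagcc
Isg15: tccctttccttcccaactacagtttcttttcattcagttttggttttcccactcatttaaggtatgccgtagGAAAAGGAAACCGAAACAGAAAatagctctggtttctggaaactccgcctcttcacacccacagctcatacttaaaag
Bst2: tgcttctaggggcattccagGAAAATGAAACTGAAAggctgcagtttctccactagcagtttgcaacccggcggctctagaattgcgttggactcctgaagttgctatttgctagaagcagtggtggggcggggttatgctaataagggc
Igtp: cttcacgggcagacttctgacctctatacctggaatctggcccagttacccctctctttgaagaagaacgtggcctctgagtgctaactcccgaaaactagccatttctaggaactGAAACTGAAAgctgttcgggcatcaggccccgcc
Ifi47: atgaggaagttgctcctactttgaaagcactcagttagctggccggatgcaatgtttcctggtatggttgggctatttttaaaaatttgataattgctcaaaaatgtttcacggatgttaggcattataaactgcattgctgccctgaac
These windows lie at chr19:34583379-34583528 (plus strand) for Ifit3, chr12:26456453-26456602 (minus) for Rsad2, chr4:156200819-156200968 (minus) for Isg15, chr8:71537473-71537622 (minus) for Bst2, chr11:58199406-58199555 (plus) for Igtp and chr11:49076437-49076586 (plus) for Ifi47. The match shown began 122 bases before the start in Ifit3, 120 in Rsad2 and 34 in Igtp. Ifit3 had another match, 156 bases before the start and outside the window shown. Isg15 held 3 overlapping matches and Bst2 a pair. The Ifi47 window held none. Ifit2, Isg20, Irf7, Oasl1, Oasl2, Cmpk2, Samd9l and Epsti1 were also without a match, so the windows shown are not typical of the set.

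Many members share a chromosome, per the GENCODE M21 annotation of GRCm38. The 3 Ifit genes lie on chromosome 19, the 5 Oas genes on chromosome 5, the 3 Ifi200 genes (Ifi203, Ifi204, Ifi213) on chromosome 1, and the Slfn genes and the 3 immunity-related GTPases are among 9 members on chromosome 11. Igtp shares exon sequence on its own strand with Irgm2, Ifi47 with Olfr56, Ifi203 with Mndal, Rtp4 with Gm45338, Parp14 with Gm49730 and Herc6 with Gm45193, so their counts are uncertain. The same holds for members with near-identical copies, such as Ifit3, Oas1a, Trim30a, the Slfn genes and Phf11b.

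The 3 libraries held 7903, 8566 and 5779 barcodes in C, T1 and T3, of which 6004, 6143 and 4543 were kept, with median depths of 4933, 5272 and 1803 UMIs. Barcode sequences shared between libraries numbered 35 to 39 per pair. Xist stood at 1356 to 1470 CPM (UMIs per 1000000) with 1 Y-linked UMI per library, which goes against the label "male". In T3, 25.9% of kept barcodes had at least 1% haemoglobin UMIs, against at most 1 barcode in C and T1. B-gated barcodes had a Cd79a or Ms4a1 UMI and no CD3 UMI, and numbered 2695, 3024 and 1019 in C, T1 and T3. T-gated barcodes had a CD3 UMI and neither B marker, and numbered 1874, 1829 and 2175. Summed B check markers stood at 2485, 2380 and 2562 CPM in the B gate and 64.6, 59.5 and 71.8 in the T gate, and summed T check markers at 3265, 3547 and 2740 CPM in the T gate and 203, 241 and 286 in the B gate. Summed plasma cell markers in the B gate were at 6067, 3692 and 521 CPM, and summed erythroid markers in the T gate at 1.93, 0.616 and 4954 CPM. Summed neutrophil markers were at 24.1, 40.8 and 572 CPM in the B gate and 9.01, 17.7 and 804 CPM in the T gate. Their part in the results was not tested.

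In B-gated barcodes, antiviral effector genes were lower in T1 than in C. A gene was called lower or higher when its CPM differed at least 2-fold, its interval excluded no difference and the pair of libraries held at least 100 of its UMIs. Of 40 members with enough UMIs, 9 were called lower and none higher, where 1.85% of the 8928 genes measured were called lower and 0.302% higher. After each barcode was drawn down to 1000 UMIs 2 members were called lower, and at a 1.5-fold limit 21 were. No share of all genes called was computed at either setting. The draw also leaves fewer UMIs under the same minimum of 100, so fewer members can be called. The 9 were Ifit1, Ifit2, Ifit3, Mx1, Oas2, Oas3, Rsad2, Rtp4 and Cmpk2. Their role groups were antiviral effectors (7 of 12 measured) and the OAS family (2 of 5). The median log2 ratio of the 40 was -0.61, against -0.10 for all genes measured. Over all 44 members, 43 lay below 0, with no share of all genes to set beside this count. Some of the 43 rest on few UMIs. Ifi44, Ifi204, Ifih1 and Slfn1 had too few UMIs to be called.

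Ifit3, which binds foreign RNA with Ifit1, stood at 18.8 CPM in C, 3.63 in T1 and 6.29 in T3. It fell by 2.37 on the log2 scale in T1 (interval -2.81 to -1.96) and by 1.58 in T3 (-2.33 to -0.91). C was thus the high library for this gene, and the T1 and T3 intervals overlapped. Ifit2, a relative that also binds RNA, was at 9.48, 2.32 and 6.62 CPM and fell by 2.03 (-2.60 to -1.50) in T1. Its T3 value of -0.52 against C was not called. Ifit1, which recognises RNA caps lacking methylation, was at 6.21, 2.07 and 3.64 CPM in the same order, a log2 ratio of -1.59 in T1.

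Rsad2, the radical-SAM enzyme viperin, was at 5.66, 1.44 and 3.97 CPM in C, T1 and T3, and fell by 1.97 in T1. Cmpk2, its neighbour on chromosome 12 and a mitochondrial nucleotide kinase, was at 4.98, 2.26 and 1.66 CPM and fell by 1.14 in T1, a direction that turned (0.17) when each barcode was drawn down to 1000 UMIs. Rtp4, an interferon-induced antiviral protein, was at 20.3, 7.14 and 10.6 CPM and fell in T1 (log2 interval -1.83 to -1.19). These genes were each highest in C. Mx1, a GTPase against viral ribonucleoproteins, fell by 1.27 in T1, from 9.21 to 3.82 CPM. Oas2 and Oas3, which make the oligoadenylate that activates RNase L, fell by 1.05 and 1.07. The Oas2 and Oas3 calls sat at the 2-fold limit and did not hold when ratios were centred on the median of all genes (-0.95 and -0.97).

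Other core members were not called in this comparison. Irf7, the transcription factor that amplifies the type I response, was at 36.3, 18.6 and 30.1 CPM in C, T1 and T3 (T1 against C, -0.97, interval -1.18 to -0.76). Isg15, a ubiquitin-like modifier, was at 22.8, 16.9 and 15.6 CPM. Usp18, the protease that removes Isg15, was at 9.07, 4.95 and 7.29 CPM. Oasl1 was at 18.1, 10.5 and 19.5 CPM and Oasl2 at 8.87, 5.01 and 8.61 CPM. No core member outside the called ones reached the 2-fold limit in T1. Ifi27l2a, a mitochondrial protein and the most abundant member, was at 548, 439 and 515 CPM. Ifi35, a partner of the signalling regulator Nmi, was at 43.6, 31.4 and 36.4 CPM. Parp14, an ADP-ribosyltransferase, was at 49.7, 38.0 and 60.6 CPM. Ifi203, of the DNA-sensing Ifi200 family, was at 212, 168 and 275 CPM and Epsti1 at 71.7, 72.6 and 64.9 CPM.

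**Figure D1:**
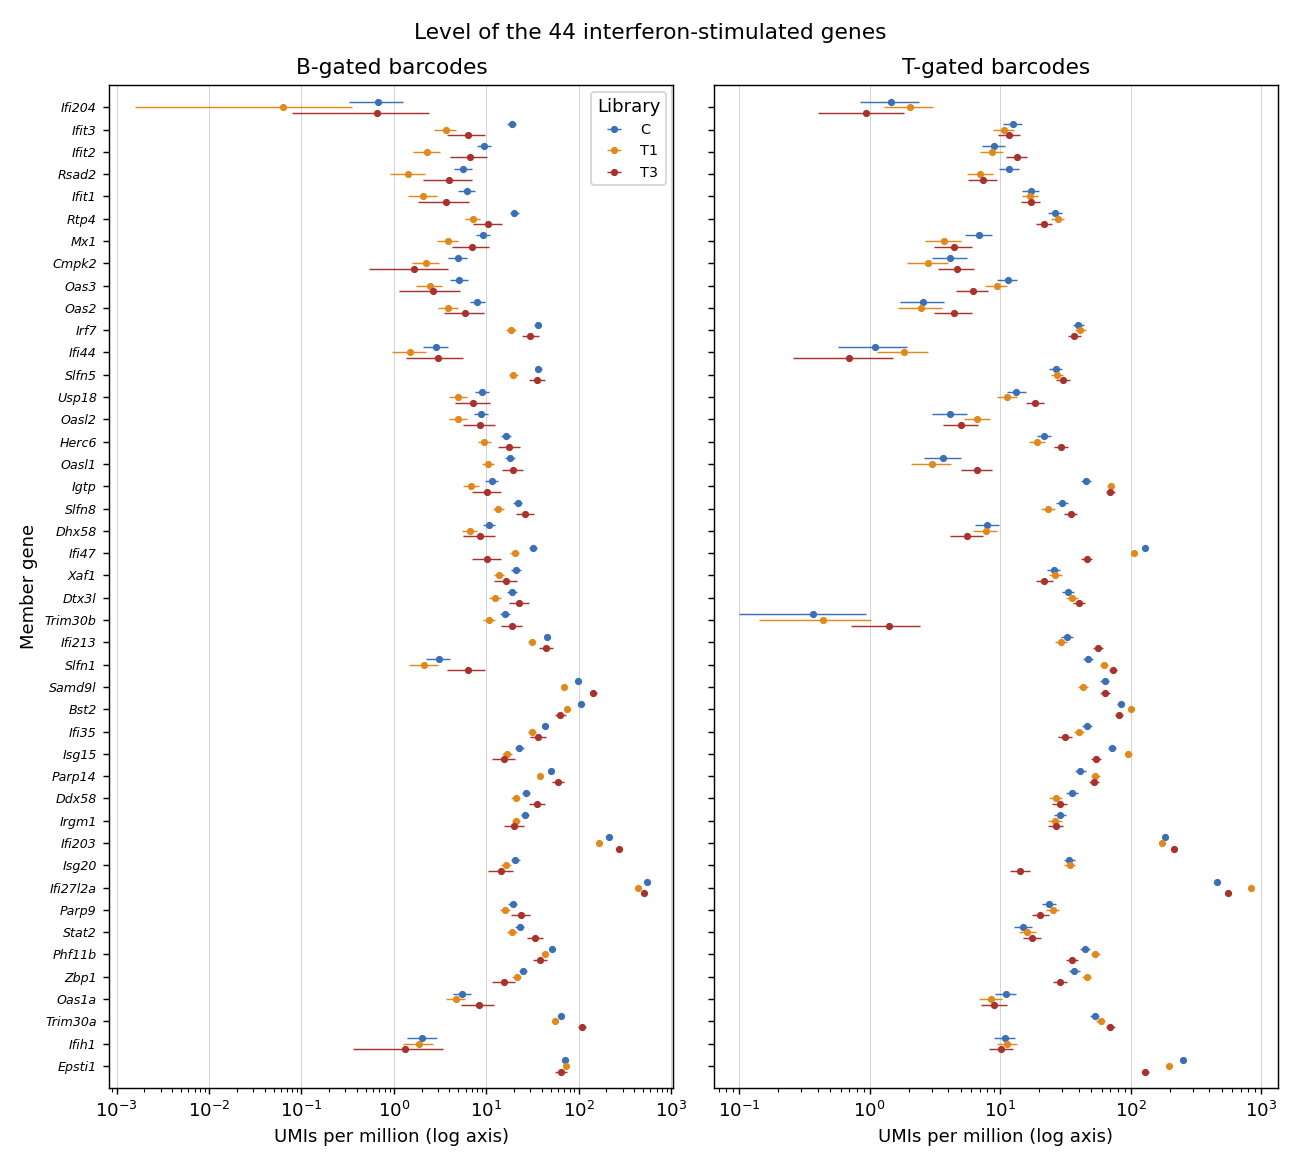
Level of each of the 44 members in B-gated (left) and T-gated (right) barcodes as UMIs per 1000000 on a log axis, with 95% counting intervals, for libraries C, T1 and T3, ordered by the T1 against C ratio in the B gate. Ifi204 at the top rests on 10, 1 and 2 UMIs in the B gate of C, T1 and T3. Below it Ifit3 fell from 18.8 in C to 3.63 in T1 in the B gate, and Epsti1 at the bottom was at 71.7 and 72.6.

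Summed over 10 core members (Ifit1, Ifit2, Ifit3, Isg15, Mx1, Oasl1, Oasl2, Rsad2, Usp18 and Irf7), the B gate held 145 CPM in C, 69.3 in T1 and 109 in T3. The sum in C was 2.09-fold that in T1 (log2 ratio -1.06, interval -1.17 to -0.96), and the T3 ratio to C was -0.41 (-0.59 to -0.24). A summed level cannot tell fewer expressing barcodes from fewer UMIs in each. The share of barcodes below cannot either, since it also falls when each barcode holds fewer core UMIs. The 33 members outside the core other than Ifi27l2a summed to 1122, 841 and 1189 CPM.

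Between T3 and C in the B gate, 2 of 37 measured members were called lower and none higher, where 4.2% of 8101 genes were called lower and 4.33% higher. The share of members called lower was near that of all genes. The pair was Ifit3 and Ifi47. Ifi47, an immunity-related GTPase that interferon gamma strongly induces, was at 32.1, 20.5 and 10.3 CPM in C, T1 and T3 and fell by 1.64 in T3 (-2.22 to -1.12). The median log2 ratio of the 37 was -0.16, against 0.08 for all genes. Some members stood above C without being called: Trim30a, a TRIM protein that restrains inflammatory signalling, was at 64.4, 56.1 and 109 CPM, and Stat2, a transcription factor of type I signalling, at 23.0, 19.0 and 34.1 CPM. Between T3 and T1, 1 of 32 measured members was called higher, where 3.88% of 7987 genes were called higher and 1.25% lower. The share of members called higher was again near that of all genes. The member called was Samd9l, an inhibitor of protein synthesis, at 99.1, 70.3 and 145 CPM (T3 against T1, 1.04, interval 0.88 to 1.20). The Samd9l call did not hold when ratios were centred on the all-gene median (0.86).

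Few B-gated barcodes held several core members. Of 2695 B-gated barcodes in C, 125 (4.64%, Clopper-Pearson interval 3.88% to 5.50%) held UMIs of at least 3 core members, against 38 of 3024 in T1 (1.26%, 0.891% to 1.72%) and 12 of 1019 in T3 (1.18%, 0.610% to 2.05%). The intervals of T1 and T3 overlapped each other and not that of C, but T3 was the shallowest library. In C those 125 barcodes held 4.81% of the gate's UMIs and 87.0% of its Ifit3 UMIs, 84.3% of Rsad2 and 79.3% of Mx1. The lowest core shares were 40.7% for Irf7, 41.5% for Oasl2 and 44.5% for Isg15, and the core sum was 56.8%. The core members chose these barcodes, so their shares there are a description. Members that the choice did not use also had UMIs there: 49.3% of Oas3, 47.4% of Slfn5, 40.4% of Rtp4, 14.3% of Ifi203 and 12.5% of Epsti1.

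Depth differs between the libraries, so barcodes were also drawn down to 1000 UMIs each, leaving out 120, 158 and 231 shallower B-gated barcodes. At that depth 20 of 2575 barcodes of C held at least 3 core members (0.777%, interval 0.475% to 1.20%), 4 of 2866 of T1 (0.140%, 0.0380% to 0.357%) and 1 of 788 of T3 (0.127%, 0.00321% to 0.705%). The T3 interval then overlapped that of C. For at least 2 core members the shares were 2.33%, 0.558% and 1.52%, with T3 above T1. The draw is random and few barcodes pass, and 20 further draws gave 15 to 33 barcodes in C (0.583% to 1.28%, median 1.01%), 2 to 8 in T1 (0.0698% to 0.279%, median 0.174%) and 0 to 3 in T3 (0% to 0.381%, median 0.127%). The draw given first thus lay below the median of the further draws in C and T1. The draws of C and T1 did not overlap. They resample the UMIs of the same barcodes, so their ranges cover the draw only and leave out differences between cells and mice. In the draw that gave 20 barcodes, 34 B-gated barcodes of C held an Ifit3 UMI, and 64.7% of them held another core member, against 9.09% of the other barcodes. The same shares were 5 of 10 barcodes (50%) against 5.92% in T1 and 2 of 3 (66.7%) against 8.03% in T3.

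With the barcodes of at least 3 core members left out of every library, the summed core level of the B gate in T1 stood at -0.32 against C (interval -0.45 to -0.18), where it was -1.06 with them. Ifit3 then stood at -1.09 (-1.97 to -0.25), Rtp4 at -1.19 (-1.58 to -0.81), Mx1 at 0.07 (-0.70 to 0.85) and Usp18 at -0.02 (-0.62 to 0.57). Leaving out barcodes by the number of core members they hold lowers these genes in every library by construction, so the smaller ratio is in part built in and does not locate the difference. Of the 125 barcodes in C, 2 held at least 2 of the 22 neutrophil and myeloid markers and 4 held at least 3 of the 4 plasma cell markers. Without all B-gated barcodes of the former kind the core ratio of T1 to C was -1.08, and without those of the latter kind -1.26.

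**Figure D2:**
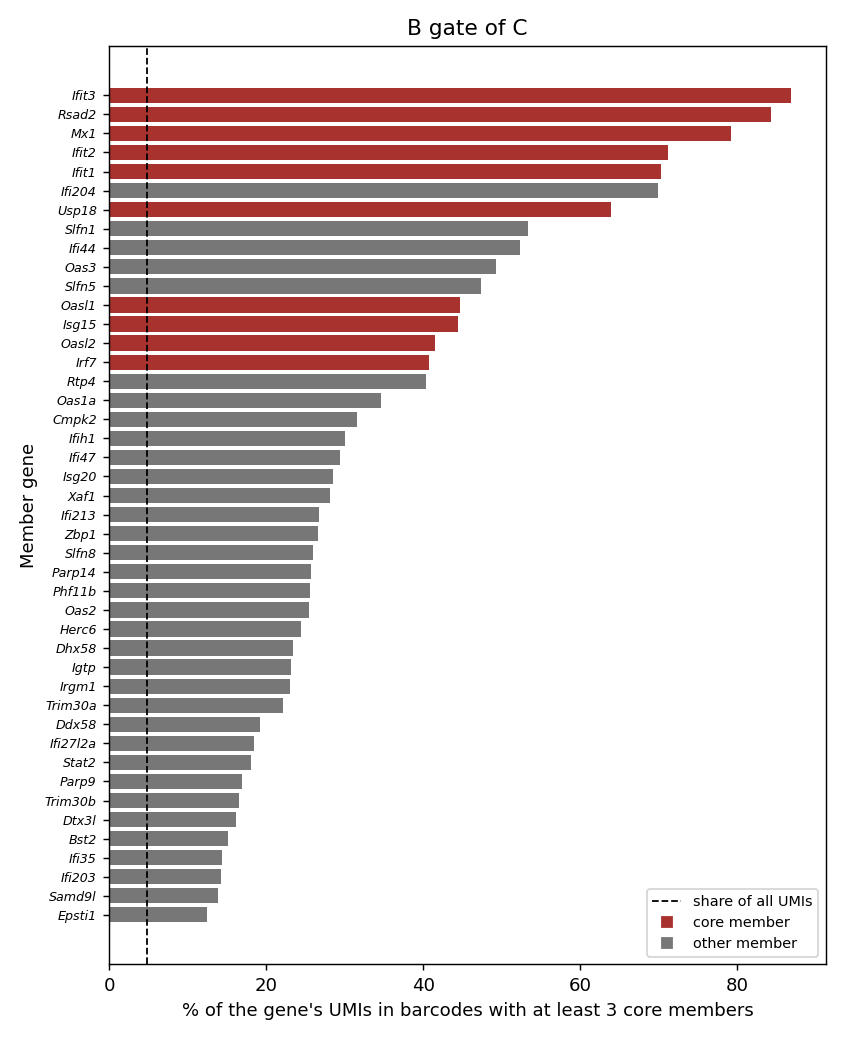
Share of each member's UMIs in the B gate of C that lay in the 125 barcodes with at least 3 core members, with core members in red and the other members in grey. The dashed line marks the 4.81% of all UMIs that these barcodes held. Every bar lies right of it, from 12.5% for Epsti1 to 87.0% for Ifit3. The core members chose these barcodes, so their bars are high in part by that choice.

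**Figure D3:**
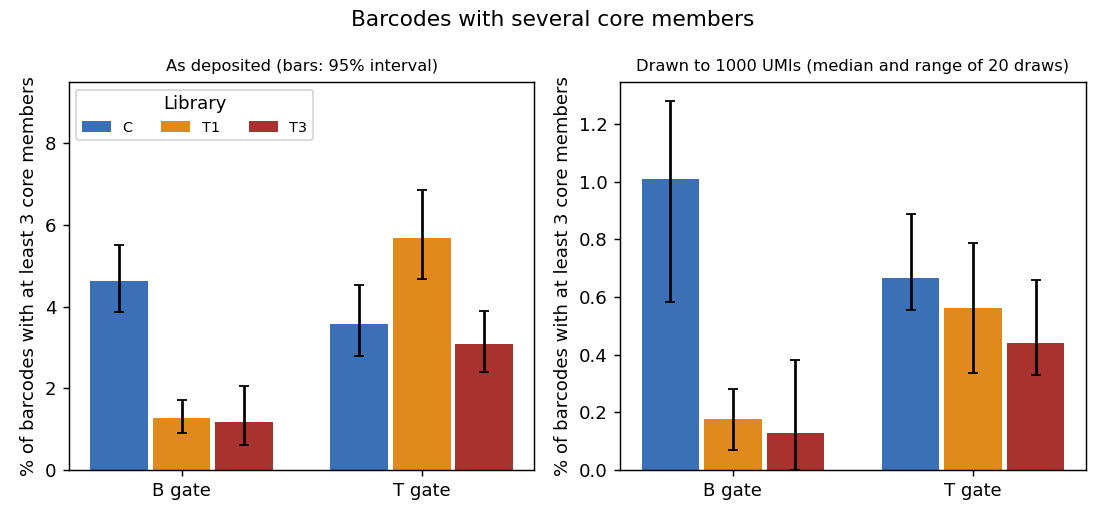
Percent of barcodes with UMIs of at least 3 core members in the B and T gates of C, T1 and T3. The left panel uses the counts as deposited with 95% intervals, where the B gate has 4.64%, 1.26% and 1.18%, and the right panel gives the median and range of 20 draws to 1000 UMIs.

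Genes that accompanied the core signal were named by a rule: the 15 non-members with the largest smaller ratio, over C and T1, between B-gated barcodes with at least 3 core members and the other B-gated barcodes. A gene also needed at least 50 UMIs in the former barcodes of C and 10 in the other barcodes. Genes thus entered through the barcodes where they were high, so the list is a description only. The list included the kinase Eif2ak2 (PKR), Rnf213, Trim30d, Tlr7, the Ifi200 genes Ifi206 and Ifi214, and the chemokine Cxcl10. Lyz2 and Il1b, which mark myeloid cells, had the largest ratios of the list, which also held the chemokine Cxcl2. In C, 3 of the 125 barcodes held a Lyz2 UMI and 2 an Il1b UMI. In T1, 2 of the 38 barcodes held a Lyz2 UMI and 3 an Il1b UMI, and they carried 193 Il1b UMIs against 255 in the other barcodes. At least 2 neutrophil or myeloid markers were found in 1.60% of these barcodes and 0.584% of the others in C, and in 7.89% and 0.569% in T1. Their part in the core signal was not tested beyond the ratio without such barcodes given above.

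T-gated barcodes did not show the B-gate difference between T1 and C. None of 38 measured members was called, where 1.98% of 8848 genes were called lower and 1.76% higher, and the members' median log2 ratio was -0.01 against -0.07 for all genes. Ifit3 was at 12.5, 10.7 and 11.8 CPM in C, T1 and T3, and Ifit1 at 17.2, 16.9 and 17.1 CPM. The summed core level was 190, 206 and 176 CPM. T3 against C was -0.11 (-0.21 to -0.01) for that sum, and the sign turned to 0.02 when ratios were centred on the all-gene median and to 0.05 when mitochondrial, ribosomal protein and immunoglobulin genes were left out of the total. Ifi27l2a was at 458 CPM in C, 836 in T1 and 558 in T3 (T1 against C, 0.87, interval 0.82 to 0.92), just under the 2-fold limit.

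In the T gate of T3, members were called lower about as often as all genes. Of 37 measured, 2 were called lower against C and none higher, where 7.06% of 8613 genes were called lower and 3.01% higher. Ifi47 was at 128, 107 and 46.1 CPM in C, T1 and T3 and fell by 1.47 in T3 (-1.64 to -1.31). Isg20, an exonuclease that degrades RNA, was at 34.0, 34.2 and 14.3 CPM and fell by 1.25 (-1.55 to -0.95). The same pair was called lower in T3 against T1 (Ifi47 -1.21, Isg20 -1.26, of 37 measured), where 4.56% of 8488 genes were called lower and 1.85% higher. T3 was the low library for both genes, while C and T1 lay close together.

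Igtp, a GTPase of the same family as Ifi47, acts on the vacuoles of intracellular parasites. In the T gate it was at 45.3 CPM in C, 70.3 in T1 and 70.0 in T3 (0.63 against C in both, not called). Irgm1, which regulates that family, was at 28.9, 26.4 and 26.8 CPM. Epsti1 was at 254, 198 and 130 CPM (T3 against C, -0.97, interval -1.07 to -0.87, not called). Slfn1, a Schlafen gene linked to T cell quiescence, was at 47.5, 62.5 and 73.4 CPM. Without the T-gated barcodes of at least 1% haemoglobin (449 of 2175 in T3), Ifi47 stood at -1.43 and Isg20 at -1.30 against C. Without those of at least 2 neutrophil or myeloid markers the values were -1.44 and -1.27.

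**Figure D4:**
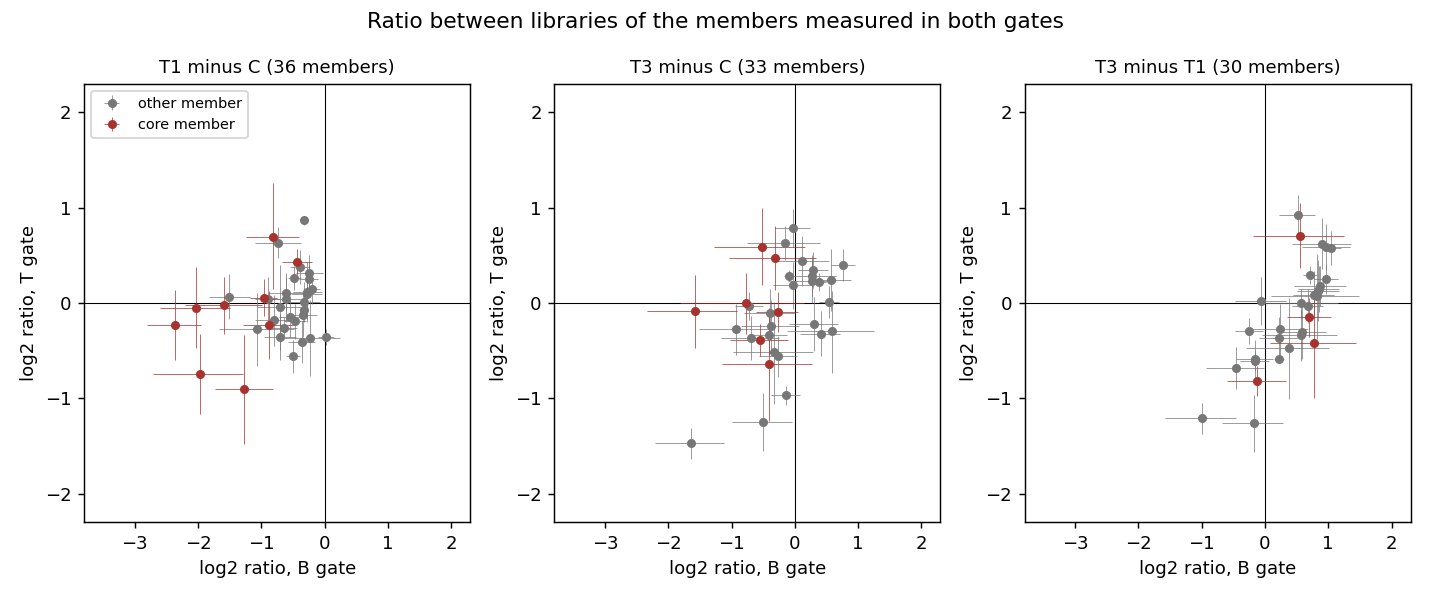
Log2 ratio between libraries in the B gate (horizontal) and the T gate (vertical) for members with at least 100 UMIs in both gates, with 95% counting intervals, for T1 against C, T3 against C and T3 against T1. In the left panel the core members in red reach -2.37 on the B axis, and in the middle panel Ifi47 lies lowest on both axes at -1.64 and -1.47. The panels share libraries.

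Within a library, more members were called higher in the T gate than lower, and the same held for all genes. In C, 9 of 42 measured members were called higher in the T gate and 4 lower, where 13.1% of 9172 genes were called higher and 8.16% lower. In T1 the counts were 18 and 2 of 40, where 13.4% and 7.46% of 8983 genes were called. In T3 they were 9 and 2 of 33, where 9.65% and 8.35% of 7278 genes were called. The members' median log2 ratio of T to B was 0.12 in C, 0.90 in T1 and 0.37 in T3. For all genes measured it was 0.16, 0.18 and -0.02. Ifit1, Isg15, Slfn1, Epsti1, Ifi47 and Igtp were called higher in the T gate in all 3 libraries. Slfn1 differed most among these, with 47.5 CPM in the T gate and 3.07 in the B gate of C. Oasl1, an OAS-like protein without synthetase activity, was called lower in the T gate in all 3 libraries, with 3.68 against 18.1 CPM in C. No share of all genes called in all 3 libraries was computed, so these members are a description.

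T-gated barcodes were divided by marker UMIs into Foxp3 (60, 234 and 76 barcodes in C, T1 and T3), Trdc (294, 114 and 87), Cd8b1 (295, 271 and 416) and Cd4 (328, 576 and 512). Foxp3 marks regulatory T cells and Trdc the gamma delta T cell receptor. The summed core level was 104, 207 and 280 CPM in the Trdc barcodes (T1 against C, 0.99, interval 0.68 to 1.30, and T3 against C, 1.42, 1.07 to 1.77). The same sum was 212, 213 and 165 CPM in the Cd8b1, 205, 227 and 157 in the Cd4 and 172, 191 and 122 in the Foxp3 barcodes. Whether the divisions differ was not tested.

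In the Trdc barcodes Isg15 was at 38.3, 106 and 82.6 CPM, called higher in T1 (1.46) and T3 (1.11) than in C. Ifi27l2a was at 143, 420 and 402 CPM and was called higher in both (1.55 and 1.49). These were 2 of 11 measured members in T1, where 0.764% of 3142 genes were called higher. In T3, 3 of 9 measured members were called higher, Trim30a being the third, and 2 lower, where 4.07% and 13.3% of 2778 genes were called. The lower pair was Epsti1 (325, 296 and 144 CPM) and Ifi47 (125, 130 and 53.3 CPM). That pair was also called lower in T3 against T1, of 6 members measured, where 6.01% of 1264 genes were called lower.

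Ifi47 was lowest in T3 in each division, with 57.1 CPM in the Cd8b1, 39.0 in the Cd4 and 40.5 in the Foxp3 barcodes, against 158, 115 and 119 CPM in C. It was called lower in T3 than in C in the Cd8b1 (of 24 members measured) and Cd4 (of 25) barcodes, where 5.14% of 4166 and 2.93% of 4477 genes were called lower. In the Cd8b1 barcodes Isg20 (41.2, 25.6 and 8.69 CPM) and Isg15 (81.4, 82.6 and 36.8 CPM) were also called lower in T3 than in C. Against T1, Isg15 was called lower in the Cd8b1 barcodes (-1.17, of 23 measured), where 1.03% of 3988 genes were called lower. In the Cd4 barcodes Isg15 (-1.05), Isg20 (-1.25), Epsti1 (-1.04) and Ifi47 (-1.44) were called lower in T3 than in T1, of 27 measured, where 4.33% of 5472 genes were called lower. In the Foxp3 barcodes Zbp1, a sensor of left-handed nucleic acid (45.2, 81.6 and 29.7 CPM), and Ifi47 were called lower in T3 than in T1, of 12 measured, where 2.99% of 2472 genes were called lower. Ifi27l2a differed among divisions in level, with 1829.5 CPM in the Foxp3, 848 in the Cd4, 464 in the Cd8b1 and 143 in the Trdc barcodes of C.

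**Figure D5:**
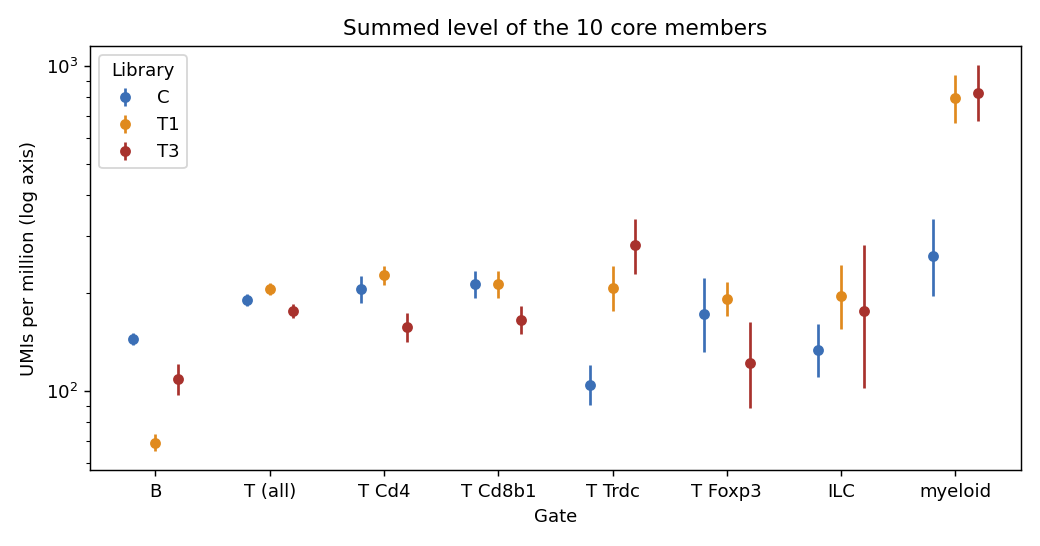
Summed level of the 10 core members as UMIs per 1000000 on a log axis with 95% counting intervals, by gate and library. In the B gate C (145) lies above T3 (109) and T1 (69.3), and in the Trdc division C (104) lies below T1 (207) and T3 (280).

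Innate lymphoid barcodes (129, 66 and 19 in C, T1 and T3) held too few UMIs for calls: 4 members could be measured between T1 and C and none was called, where 1.41% of 1556 genes were called higher and 1.03% lower. Their summed core level was 134, 196 and 175 CPM. Myeloid barcodes numbered 23, 16 and 10. Their summed core level was 259, 793 and 826 CPM, and Bst2 (tetherin, which holds virions at the cell surface) was at 381, 888 and 1620.5 CPM. Bst2 was called higher in T1 (1.22) and T3 (2.09) than in C, and Ifi27l2a (616, 1000.1 and 1831 CPM) higher in T3 (1.57), of 2 members measured, where 3.44% of 494 and 6.15% of 439 genes were called higher. Siglech, a marker of plasmacytoid dendritic cells, which carry Bst2 at rest, had 2, 36 and 72 UMIs in these barcodes. The part of such cells in the core, Bst2 and Ifi27l2a levels was not tested. Of the core sum, Irf7 made up 42.4 CPM in C, 219 in T1 and 292 in T3. Neutrophil-gated barcodes numbered 4, 3 and 55, so C and T1 gave no usable level.

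Among pathway genes outside the set, the interferons looked at other than Ifng were close to absent in the B and T gates. Ifnb1, Ifna1, Ifna2, Ifna4, Ifnl2 and Ifnl3 had at most 4 UMIs each in any library of either gate. Further interferon genes were not looked at. Ifng in T-gated barcodes was at 312 CPM in C, 142 in T1 and 21.9 in T3. It fell by 1.13 in T1 (-1.22 to -1.05) and by 3.83 in T3 (-4.05 to -3.62) against C. Of 24 genes that lean to interferon gamma, 23 were measured in the T gate between T3 and C, where 1 was called lower (Tgtp2, a GTPase, -1.49) and 1 higher (Irgm2, 1.34), where 7.06% of all genes were called lower and 3.01% higher. Their median was -0.42, against -0.13 for all genes. Between T1 and C, Gbp3, a guanylate-binding protein, was called higher (10.4, 31.1 and 10.4 CPM in C, T1 and T3). In the T gate 1.76% of all genes were called higher in that comparison. In the B gate Cxcl10 was called lower in T1 (-1.06) and T3 (-2.84), with 174, 91 and 5 UMIs. In those comparisons 1.85% and 4.2% of all genes were called lower.

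The receptors were present in both gates. Of 5 receptor genes, 4 could be measured in each gate, and 1 was called: Ifngr2 in the T gate, at 17.4, 27.1 and 47.1 CPM, higher in T3 than in C by 1.44 (1.18 to 1.69), where 3.01% of all genes were called higher. Ifnar1 was at 35.3, 36.4 and 63.3 CPM in the B gate and 40.9, 46.0 and 47.1 in the T gate. Ifnar2 was at 34.9, 32.3 and 33.4 CPM in the B gate. Ifnlr1, the interferon lambda receptor chain, had no UMI in the T gate. Of 11 signalling genes, all were measured. Jak2, the kinase at Ifngr2, was called higher in the B gate of T3 than in C (1.23), where 4.33% of all genes were called higher, and Socs3, an inhibitor of JAK signalling, was called higher in the T gate of T3 (94.6, 148 and 217 CPM, 1.20), where 3.01% were.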

How the data were processed

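Raw UMI counts, 1 whole number per gene and barcode and not scaled in any way, are what the authors deposited for the 3 libraries. Named in the submitters' processing notes, with no roles, are Seurat 3.1.4, CASAVA 1.8, Cell Ranger 3.1.0 and, as genome, GRCm38. The annotation and the alignment settings were not stated in the sources read. No barcode in the files had under 500 UMIs.

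Barcodes with fewer than 200 genes or over 20% mitochondrial UMIs were left out. No doublet caller was used, and barcodes with both a B marker and a CD3 UMI (979, 819 and 566) were left out of both gates. The T divisions were assigned in the order Foxp3, Trdc, Cd8b1 and Cd4. Neutrophil and myeloid gates needed 3 markers and the innate lymphoid gate 2, with no B or CD3 UMI. Counts were summed per gate and library and divided by the gate's total (CPM). Ratios have exact conditional intervals, levels exact Poisson intervals and shares Clopper-Pearson intervals. The call rule was tested on simulated data. Python 3.11.15, numpy 2.4.6, scipy 1.17.1 and pandas 2.3.3 were used.

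Named were members called between libraries in the B or T gate, the 10 core members and the most abundant member of each role group. Other members are named for levels, contrasts between gates and divisions, and were chosen after their values were seen. Members and lists were chosen with earlier results of these data known. The draw to 1000 UMIs used seed 0. A later draw over a changed set of barcodes gave a higher share in the B gate of C. The first draw was kept as the reported value, and 20 further draws were added after this was seen. Alternatives are given in the closing section.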

Additional observations from a re-analysis of the deposited data

Results flagged for a closer look

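Values that moved in opposite directions in the B and T gates, each with an interval excluding 0, were collected as results to look at again. The difference between the gates was not tested. For T1 against C, the summed core level was -1.06 in the B gate and 0.11 in the T gate. Isg15 was -0.43 and 0.43, Oasl2 -0.82 and 0.69, Zbp1 -0.24 and 0.31, and Bst2 -0.48 and 0.26. Parp14 was -0.39 and 0.38, Phf11b -0.25 and 0.26, Ifi27l2a -0.32 and 0.87, and Igtp -0.73 and 0.63. For T3 against C, Ddx58 was 0.41 in the B gate and -0.32 in the T gate, and Ifi27l2a -0.091 and 0.28. For T3 against T1, the summed core level was 0.65 and -0.22, Parp9 0.59 and -0.31, and Ifi27l2a 0.23 and -0.58.

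Barcodes that no gate took were not part of the comparisons. Their summed core level was 112 CPM in C (86.3 to 144), 196 in T1 (161 to 236) and 338 in T3 (297 to 382), so T1 and T3 lay above the interval of C. Isg15 was at 21.4, 117 and 137 CPM in these 300, 386 and 699 barcodes. The make-up of this set differed between libraries: epithelial markers summed to 1696, 418 and 54.7 CPM and erythroid markers to 12.5, 1.75 and 179262 CPM, and 266 of the 699 barcodes of T3 had at least 1% haemoglobin UMIs. Their part in the difference was not tested.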

How the results depend on the processing

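No paired analysis was possible because each group has 1 library. Of 342 summary values under alternative settings, 278 stayed within counting error or within 1.5 times the reported count, and 64 moved. Of 1452 values for named genes, 1309 stayed the same, 68 moved, 48 gained and 26 lost a call. The same meant an unchanged direction and call for called genes. For uncalled genes it meant no call and a value within counting error, whatever its sign. Direction was thus followed for called genes only, and 1 of their values turned. Cmpk2 in the B gate of T1 stood at 0.17 when each barcode was drawn to 1000 UMIs. The causes were not tested. Leaving out barcodes by plasma cell or myeloid markers, assigning double-positive barcodes to the larger side, the draw to 2000 UMIs and the further draws were chosen after seeing the data.

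No share of all genes called was computed under the alternative settings in either gate. In the B gate, members called lower in T1 against C numbered 9 as reported, 2 after the draw to 1000 UMIs and 21 at 1.5-fold. The summed core ratio was -1.26 without barcodes of 3 plasma cell markers. For T3 against C, members called lower numbered 1 after the draw, 5 at 1.5-fold and 4 without plasma-marker barcodes, and 1 was called higher at a minimum of 30 UMIs and 1 at 1.5-fold. The summed core ratio was -0.65 without plasma-marker barcodes. For T3 against T1, 1 member was called lower under 10 settings (both mitochondrial limits, 2 marker UMIs, haemoglobin, total without mitochondrial, ribosomal and immunoglobulin genes, centring, 1.5-fold, double positives, myeloid markers and plasma markers). Members called higher numbered 2 at 10% mitochondrial UMIs, 4 at 30 UMIs and 16 at 1.5-fold, and 0 with no mitochondrial limit, 2 marker UMIs, the changed total, centring, the draw or without plasma-marker barcodes. The summed core ratio was 0.47 when centred.

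In the T gate, 2 members were called lower and 3 higher in T1 against C at 1.5-fold, and the summed core ratio was 0.020 with double positives assigned. For T3 against C, 6 were called lower and 4 higher at 1.5-fold, and the summed core ratio was 0.048 with the changed total and 0.016 when centred. For T3 against T1, 7 were called lower and 5 higher at 1.5-fold, and 1 higher with the changed total, at 30 UMIs or with double positives assigned. The median was -0.16 after the draw and the summed core ratio -0.10 with the changed total.

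The share of B-gated barcodes with core members in C, T1 and T3 was 2.33%, 0.558% and 1.52% for at least 2 members, 4.64%, 1.26% and 1.18% without drawing down, and 2.16%, 0.381% and 1.08% at 2000 UMIs. For at least 4 members it was 0.388% in C and 0.0349% in T1. In the T gate it was 1.66%, 1.8% and 1.65% for at least 2 members, 3.58%, 5.69% and 3.08% without drawing down, and 1.25%, 1.34% and 1.68% at 2000 UMIs, with 0.277% for at least 4 members in C. Depth limits T3 most, since 231 of its 1019 B-gated barcodes held under 1000 UMIs.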

Other observations

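Barcodes with both B and CD3 UMIs, left out of both gates, held Ifit3 at 17.7 CPM in C, 5.58 in T1 and 3.84 in T3, and Ifi47 at 69.6, 69.4 and 32.6 CPM. Igtp in them was at 22.3, 45.3 and 37.7 CPM.

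In the T gate, 67, 104 and 67 barcodes of C, T1 and T3 held at least 3 core members (3.58%, 5.69% and 3.08%). After the draw to 1000 UMIs the counts were 11, 10 and 9 (0.610%, 0.562% and 0.494%). The ranges of 20 further draws overlapped for all 3 libraries (0.554% to 0.887%, 0.337% to 0.787% and 0.329% to 0.659%). Such ranges cover the draw only. Among the 15 non-members named by the same rule in the T gate were Ifi206, Ifi209, Rnf213, Ccl1 and Ifng.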
